A study of Arabidopsis thaliana with 15 samples.

Results

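The 10 genes described here encode enzymes that make or inactivate brassinosteroids in Arabidopsis thaliana, 8 of them for synthesis (DWF1, DET2, DWF4, CPD, ROT3, CYP90D1, BR6OX1 and BR6OX2) and 2 for inactivation (BAS1 and SOB7). They were chosen by gene identifier out of 32678 named genes in the table, by a rule that uses no measured value, although earlier results of these data were known when the members and the other gene lists were chosen. RNA was sequenced from whole seedlings of the wild type (Col ecotype), 10 days old, grown on plates of 0.5× MS medium with sucrose in long days and moved to liquid 0.5× MS medium for 2 h before treatment. Seedlings then received 5 µM GR244DO, a synthetic strigolactone analogue, for 2 h or 4 h, or solvent, which makes 5 groups with 3 libraries each: the solvent groups of 0 h, 2 h and 4 h, and the GR244DO groups of 2 h and 4 h. The labels do not say that the replicates were grown apart, so p-values measure the spread between these libraries, which may be technical.

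Brassinosteroids are steroid hormones that promote cell elongation and are made from the membrane sterol campesterol by a chain of reductases and cytochrome P450 enzymes. They are seen at the cell surface by the receptor kinase BRI1, whose pathway activates the transcription factors BZR1 and BES1. These factors are known to repress several synthesis genes when the hormone is plentiful, and to activate growth genes, while the inactivating P450 BAS1 is known to be induced by the hormone. The groups address whether a strigolactone treatment, or time in solvent, changed the transcripts of the enzymes that set the level of another growth hormone. Between the solvent groups, time in the medium and time of day cannot be told apart.

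In the order of the pathway, with positions of the TAIR10.1 annotation, DWF1 (AT3G19820, chr3:6879524-6882315) reduces a sterol side chain to give campesterol. DET2 (AT2G38050, chr2:15921136-15922321) is a steroid reductase. DWF4 (AT3G50660, chr3:18813949-18817405) is the side-chain hydroxylase usually taken as the rate-limiting step. CPD (AT5G05690, chr5:1702640-1706948) is a P450 that oxidises the sterol ring system. ROT3 (AT4G36380, chr4:17187528-17192507) and CYP90D1 (AT3G13730, chr3:4497893-4500920) are a pair of side-chain hydroxylases with overlapping function. BR6OX1 (AT5G38970, chr5:15594674-15598089) and BR6OX2 (AT3G30180, chr3:11810726-11813883) are the late oxidases that give castasterone, and BR6OX2 also gives brassinolide, the most active form. BAS1 (AT2G26710, chr2:11380463-11383821) and SOB7 (AT1G17060, chr1:5832094-5835488) are P450s that inactivate the hormone. None of the exons of the 10 genes held a window of 50 bases found elsewhere in the genome (0 windows for each gene), so no near-identical copy was found at that length. In this annotation CPD, ROT3, DET2 and SOB7 each overlapped 1 gene on the opposite strand and DWF1 overlapped 1 on its own strand. The gene models used for counting may differ, so whether these overlaps held in the counts is not known. The strand of counting is not given in the sources used here. Where the counted models did overlap, reads of those neighbours could not be told apart from theirs.

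The libraries held 24.4 to 37.4 M reads assigned to genes (M, mega), recovered as whole numbers from the deposited RPKM values (reads per kilobase of gene per M reads assigned to genes). At this depth 3 reads in a gene of 1 kb were worth 0.080 to 0.123 RPKM. Of the replicate pairs, 3 were far closer to each other than the rest: solvent 4 h replicates 1 and 3, solvent 2 h replicates 2 and 3, and GR244DO 4 h replicates 1 and 2 had chi-square values of 1.13, 1.74 and 1.87 per degree of freedom, against 3.82 to 19.23 for the other pairs. They still differed by more than sampling noise, but over 20225 genes or more even a small excess is found, so this does not show independent samples. Whether any of these pairs came from a split or re-sequenced sample is not known. The main fit counted them as separate samples, and its p-values may be too small if they were not. Calls lost when these pairs were averaged are given below with the adjusted p of that fit. All 6 root and all 6 shoot marker genes were above 0 in every library.

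Measured per length of gene, transcript levels were highest for the early sterol enzyme DWF1 and lowest for the late oxidase BR6OX1. The plot of RPKM by library shows all 10 genes. DWF1 was the most abundant, with a lowest, median and highest level of 207, 246 and 258 RPKM over the 15 libraries. CPD followed at 77.0, 96.5 and 118 RPKM, and DET2 at 19.7, 27.1 and 31.1 RPKM. These 3 ranges did not overlap. DWF4 ranged from 8.78 through a median of 11.8 to 14.97 RPKM and BR6OX2 from 6.01 through 7.78 to 14.2 RPKM, so the ranges of this neighbouring pair overlapped. The other side-chain hydroxylases differed little in level from SOB7: ROT3 had a median of 6.01 RPKM (5.49 to 6.69), SOB7 of 5.42 (5.16 to 6.16) and CYP90D1 of 4.44 (3.24 to 7.04). BAS1 was lower, at 1.54, 2.23 and 2.94 RPKM. BR6OX1 lay under the filter of 1 RPKM in at least 3 libraries, with 0.195 to 0.493 RPKM from 10 to 34 reads per library, and was therefore left out of the tests. The other 9 genes passed.

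The genes also differed in how far they moved. The highest library exceeded the lowest 2.53-fold for BR6OX1, which rests on 10 to 34 reads, 2.37-fold for BR6OX2, 2.17-fold for CYP90D1, 1.91-fold for BAS1 and 1.71-fold for DWF4. For DWF1, ROT3 and SOB7 the same ratio was 1.24, 1.22 and 1.19. The most abundant enzyme transcript, the side-chain hydroxylase ROT3 and the inactivation gene SOB7 were thus the steadiest of the 10.

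**Figure D1:**
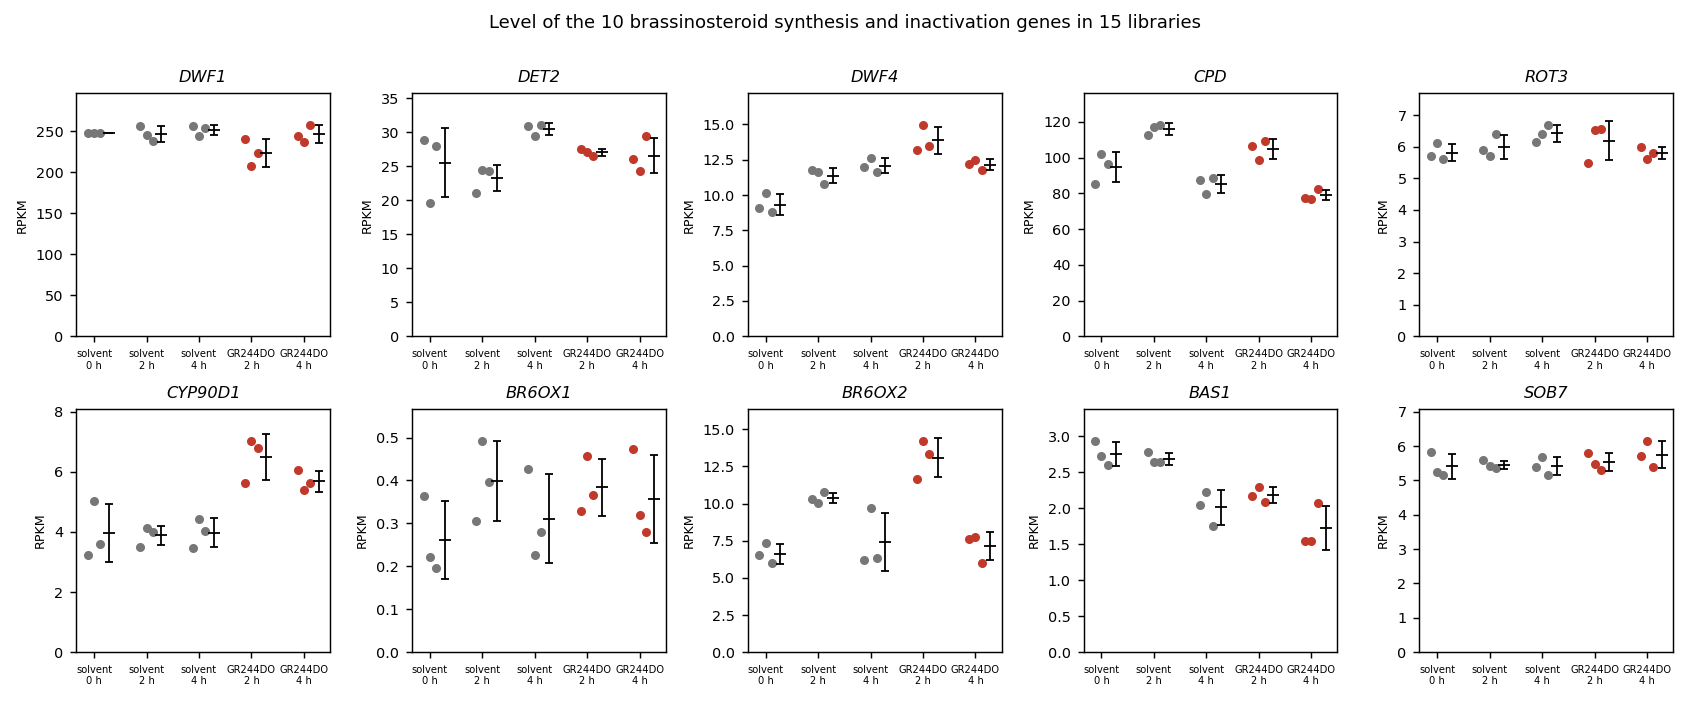
RPKM of the 10 genes on linear axes that start at 0, by group (grey, solvent; red, GR244DO), with 1 point per library in the order of the replicate numbers and the mean ± SD of 3 libraries beside them. CYP90D1 lies between 5.62 and 7.04 RPKM with GR244DO at 2 h, above all solvent libraries, while CPD and BR6OX2 are high in solvent at 2 h and lower at 0 h and 4 h.

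After 2 h of GR244DO, CYP90D1 was the only one of the 9 tested genes that passed the test, and it rose. In solvent at 2 h its level was 3.51, 4.13 and 4.01 RPKM, and with GR244DO it was 5.62, 7.04 and 6.80 RPKM. The groups did not overlap, and the means rose 1.67-fold, from 3.88 ± 0.327 to 6.49 ± 0.759 RPKM (SD, n = 3; log2 difference 0.61, SE 0.12, adjusted p = 0.0185 by limma with Benjamini-Hochberg adjustment over 19155 genes). Of all genes tested, 1.3% were called at 2 h, 0.887% higher and 0.412% lower. The split of 170 higher and 79 lower calls depended on the scaling, at 121 and 148 under quantile normalization, 100 and 103 under median-of-ratios scaling and 142 and 141 with the length trend removed. The call was lost when the near-identical pairs were averaged (adjusted p = 0.0964), and without solvent 2 h replicate 1 (0.0914), GR244DO 2 h replicate 2 (0.109) or replicate 3 (0.104), with the difference positive throughout. Here and below, in whole seedlings, a change in the share of cells of a type and a change in RNA per cell cannot be told apart.

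DWF4 came next. Its level was 11.8, 11.6 and 10.8 RPKM in solvent and 13.2, 14.97 and 13.5 RPKM with GR244DO at 2 h. Every treated library lay above every solvent library, but the difference was not called (log2 difference 0.26, SE 0.07, adjusted p = 0.0803; 95% interval 0.11 to 0.41). At 2 h the replicate numbers were counted as pairing the libraries, on weak correlations of their deviations (0.101 to 0.179) and with no label that says so. The main fit held no replicate block, as no label names such pairs. With the replicate number as a block in the fit of all 15 libraries DWF4 was called (adjusted p = 0.0204), which made 2 of 9. In that blocked fit 777 of the 19155 genes were called higher and 248 lower, against 170 and 79 without the block. In the blocked fit of the 6 libraries of 2 h alone it was not (0.0904).

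The late oxidase BR6OX2 had 10.3, 10.07 and 10.8 RPKM in solvent at 2 h and 11.7, 14.2 and 13.4 RPKM with GR244DO, again without overlap and again not called (log2 difference 0.30, SE 0.13, adjusted p = 0.238; interval 0.03 to 0.58). DET2 had 21.1, 24.4 and 24.4 RPKM and 27.5, 27.1 and 26.5 RPKM, also without overlap and not called (log2 difference 0.21, SE 0.11, adjusted p = 0.318; interval -0.03 to 0.45). For these genes the treated libraries lay on the high side.

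On the low side were CPD, BAS1 and DWF1. CPD had 112, 117 and 118 RPKM in solvent and 106, 98.9 and 109 RPKM with GR244DO at 2 h, without overlap (log2 difference -0.14, SE 0.07, adjusted p = 0.268). BAS1, the inactivating enzyme, had 2.78, 2.64 and 2.64 RPKM in solvent and 2.17, 2.30 and 2.08 RPKM with GR244DO, without overlap (log2 difference -0.21, SE 0.09, adjusted p = 0.237; interval -0.41 to -0.02). DWF1 had 256, 246 and 237 RPKM and 240.5, 207 and 223 RPKM, and its groups overlapped (log2 difference -0.14, SE 0.06, adjusted p = 0.225). None of these 3 was called. Groups without overlap were common at 2 h, at 26.2% of all genes tested, against 6 of the 9 here. Unadjusted p was under 0.05 for 6 of 9, against 18.3% of all genes.

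ROT3 and SOB7 differed least. ROT3 had 5.88, 5.69 and 6.42 RPKM in solvent and 5.49, 6.52 and 6.56 RPKM with GR244DO (log2 difference 0.04, interval -0.12 to 0.20, adjusted p = 0.805). SOB7 had 5.58, 5.42 and 5.35 and 5.81, 5.49 and 5.30 RPKM (log2 difference 0.02, interval -0.14 to 0.17, adjusted p = 0.913). Both signs turned negative under quantile and median-of-ratios scaling and with the length trend removed. The median log2 difference of the 9 genes was 0.04, beside 0.055 for all genes tested. The summed level of the 6 root markers was 1510 to 1519 RPKM in solvent and 1668 to 1695 RPKM with GR244DO at 2 h, and that of the 6 shoot markers was 21549 to 22639 and 18949 to 20509 RPKM, with no marker at 0. Most of these sums came from PYK10 among root markers and from RBCS1A and LHCB1.3 among shoot markers. Of the root markers 5 of 6 had positive log2 differences, with none called (0), and of the shoot markers 3 of 6 were positive and 3 negative, with FAMA called higher (log2 difference 0.30, SE 0.07, adjusted p = 0.0383). Their part in these results was not tested.

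After 4 h, CYP90D1 was again the only gene of the 9 that passed, and again higher. Solvent libraries held 3.46, 4.44 and 4.04 RPKM and treated libraries 6.07, 5.38 and 5.62 RPKM. The groups did not overlap, and the means rose 1.43-fold, from 3.98 ± 0.493 to 5.69 ± 0.348 RPKM (SD, n = 3; log2 difference 0.43, SE 0.12, adjusted p = 0.0365). At 4 h 8.93% of all genes tested were called, 4.69% higher and 4.23% lower. The call was lost with no filter on low values (adjusted p = 0.0704), with the near-identical pairs averaged (0.302), without solvent 4 h replicate 1 (0.167) or 3 (0.0937), and without GR244DO 4 h replicate 1, 2 or 3 (0.143, 0.0748 and 0.0634). Over all 5 groups, the means of CYP90D1 in solvent were 3.96 ± 0.957 RPKM at 0 h, 3.88 ± 0.327 at 2 h and 3.98 ± 0.493 at 4 h, so the solvent groups did not differ beyond their spread and both treated groups stood above them. The highest solvent library, solvent 0 h replicate 2 at 5.04 RPKM, lay just under the lowest treated one, at 5.38 RPKM.

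DWF4 and BR6OX2, which lay above solvent at 2 h, overlapped with it at 4 h. DWF4 had 11.98, 12.6 and 11.6 RPKM in solvent and 12.2, 12.5 and 11.8 RPKM with GR244DO, with overlap (log2 difference 0.01, interval -0.14 to 0.16). BR6OX2 had 6.22, 9.68 and 6.36 RPKM and 7.59, 7.78 and 6.03 RPKM, also with overlap (log2 difference -0.03, interval -0.31 to 0.24). In that gene solvent 4 h replicate 2 stood apart from the other replicates, and without it the difference was 0.15 and still not called.

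DET2 lay on the other side of solvent at 4 h, at 31.0, 29.5 and 31.1 RPKM in solvent and 26.0, 24.3 and 29.4 RPKM with GR244DO, without overlap and not called (log2 difference -0.20, SE 0.11, adjusted p = 0.294; interval -0.43 to 0.04). With the replicate block in the 6 libraries of 4 h it was called lower (adjusted p = 0.0272), although the replicate numbers were not counted as pairing the libraries at 4 h. ROT3 also lay below solvent without overlap and was not called, at 6.16, 6.41 and 6.69 against 6.01, 5.62 and 5.81 RPKM (log2 difference -0.12, SE 0.08, adjusted p = 0.349). The share of all genes without overlap at 4 h was 33.5%.

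In the remaining genes the groups overlapped. CPD had 87.5, 79.6 and 88.7 RPKM in solvent and 77.6, 77.0 and 82.2 RPKM with GR244DO at 4 h (log2 difference -0.11, SE 0.07, adjusted p = 0.348). BAS1 had 2.05, 2.23 and 1.75 and 1.54, 1.55 and 2.08 RPKM (log2 difference -0.15, SE 0.09, adjusted p = 0.343). For DWF1 the levels were 256, 244 and 254 and 244, 237 and 258 RPKM (log2 difference -0.03), and for SOB7 5.39, 5.69 and 5.16 and 5.70, 6.15 and 5.396 RPKM (log2 difference 0.07). Unadjusted p was under 0.05 for 1 of the 9, against 24.1% of all genes, and the median log2 difference was -0.03 beside 0.020 for all genes. Root marker sums were 1726 to 1743 RPKM in solvent and 1777 to 1869 RPKM with GR244DO at 4 h, and shoot marker sums were 14999 to 17010 and 15927 to 18206 RPKM. Of the root markers 3 of 6 were positive and 3 negative, with NRT2.1 called higher (log2 difference 0.70, SE 0.08, adjusted p = 2.65e-05), and of the shoot markers 5 of 6 were positive, with RCA called higher (log2 difference 0.31, SE 0.06, adjusted p = 0.00425). Their part was not tested here either.

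**Figure D2:**
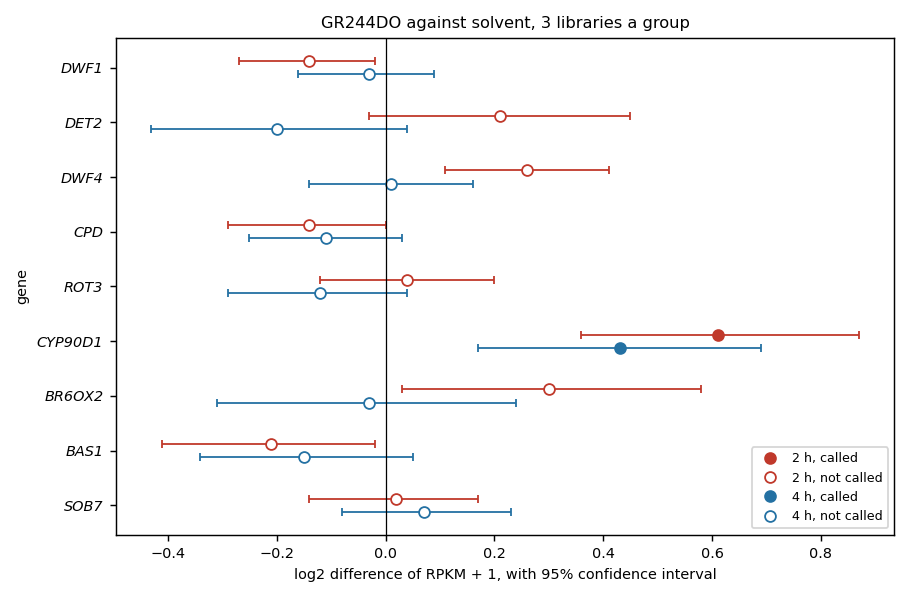
Log2 difference between GR244DO and solvent libraries on the log2(RPKM + 1) scale for the 9 tested genes at 2 h (red) and 4 h (blue), with 95% intervals from the limma fit; filled points passed an adjusted p of 0.05. CYP90D1 is filled at both times, at 0.61 and 0.43. DET2, BR6OX2 and ROT3 lie on opposite sides of 0 at the different times, none of them called, and the intervals of DET2 include 0 at both times.

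The responses at 4 h and 2 h were compared directly as a difference of differences, which 1.72% of all genes passed, 0.961% with a higher and 0.757% with a lower response at 4 h. This split of 184 and 145 genes was 276 and 119 with the length trend removed. No member passed (0 of 9), and 2 of 9 had an unadjusted p under 0.05, against 11.1% of all genes, with a median of -0.16 beside -0.037 for all genes. For DET2 the 4 h response minus the 2 h response was -0.41 on the log2 scale (unadjusted p = 0.0196, adjusted p = 0.298 by limma). For DWF4 the same difference was -0.26 (unadjusted p = 0.0209, adjusted p = 0.307). For CYP90D1 it was -0.18 with an interval of -0.55 to 0.18 (adjusted p = 0.811), so the size of its response was not shown to differ between the times.

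BR6OX1, tested only in a fit with no filter, was not called in either treatment comparison. Its levels were 0.306, 0.493 and 0.397 RPKM in solvent and 0.328, 0.458 and 0.367 RPKM with GR244DO at 2 h, and 0.426, 0.227 and 0.280 and 0.473, 0.320 and 0.279 RPKM at 4 h. In that fit its log2 differences were -0.01 (adjusted p = 0.975) and 0.05 (adjusted p = 0.770). At 10 to 34 reads per library this gene's values carry more counting error than those of the other 9.

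Other genes of the hormone's pathway were counted by list. At 2 h none of 6 sterol synthesis genes upstream, 4 other inactivation genes and 16 receptor and signalling genes tested was called (0 in each list). Of all genes 1.3% were called. Of 8 brassinosteroid-induced genes tested out of 9 listed, none was called higher (0) and 1 was called lower, beside 0.887% and 0.412% of all genes. Their median log2 difference was -0.22 beside 0.055 for all genes. By sign 6 were negative and 2 positive, EXO (0.19) and BEE2 (0.30). The gene called lower was BEE3, a basic helix-loop-helix transcription factor gene, with 21.6, 21.3 and 22.1 RPKM in solvent and 16.0, 13.8 and 16.2 RPKM with GR244DO (log2 difference -0.48, SE 0.07, adjusted p = 0.00143).

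At 4 h, 4 of the 8 brassinosteroid-induced genes were called lower and 0 higher, beside 4.23% and 4.69% of all genes. Their median log2 difference was -0.36 beside 0.020 for all genes. By sign 6 were negative and 2 positive. The positive 2, neither of them called, were BEE2 (log2 difference 0.49, SE 0.19, interval 0.09 to 0.88, adjusted p = 0.120 by limma) and PRE1 (0.12, adjusted p = 0.513). BEE3 had 22.0, 24.1 and 22.5 RPKM in solvent and 14.1, 14.6 and 15.7 RPKM with GR244DO (log2 difference -0.59, SE 0.07, adjusted p = 2.30e-05). EXO, a gene of cell expansion in leaves, had 160.1, 155 and 159 and 115, 113 and 117 RPKM (log2 difference -0.45, SE 0.07, adjusted p = 6.79e-04). In both, every treated library lay below every solvent library. BEE1, related to BEE3, had 16.1, 18.0 and 15.1 and 13.2, 11.2 and 11.8 RPKM (log2 difference -0.41, SE 0.08, adjusted p = 0.00344). SAUR15, a small auxin-induced RNA gene that also answers brassinosteroid, had 3.81, 3.21 and 4.05 and 2.23, 2.44 and 2.55 RPKM (log2 difference -0.46, SE 0.10, adjusted p = 0.0103), a call lost with the near-identical pairs averaged (0.197), without solvent 4 h replicate 3 (0.0622) and without GR244DO 4 h replicate 1 (0.0575). None of the 16 signalling genes tested was called at 4 h (0), and neither was any of the 6 sterol genes (0), beside 8.93% of all genes.

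Of 4 other inactivation genes tested at 4 h, 1 was called higher and 1 lower, beside 4.69% and 4.23% of all genes. UGT73C5, a glucosyltransferase that conjugates brassinosteroids and other compounds, had 19.4, 21.1 and 18.8 RPKM in solvent and 34.8, 35.4 and 29.4 RPKM with GR244DO (log2 difference 0.72, SE 0.08, adjusted p = 3.07e-05). It sits among close relatives, and 129 of its 1909 exon windows of 50 bases occur elsewhere in the genome, so its level is uncertain to the extent that such reads were shared or dropped. BAT1, an acyltransferase that inactivates brassinosteroids, had 14.7, 14.6 and 15.9 and 11.9, 12.3 and 13.1 RPKM (log2 difference -0.26, SE 0.07, adjusted p = 0.0246), a call lost in 5 of 18 alternatives, where the adjusted p reached 0.281 (pairs averaged). The inactivating P450s BAS1 and SOB7 were not called at either time, as given above.

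**Figure D3:**
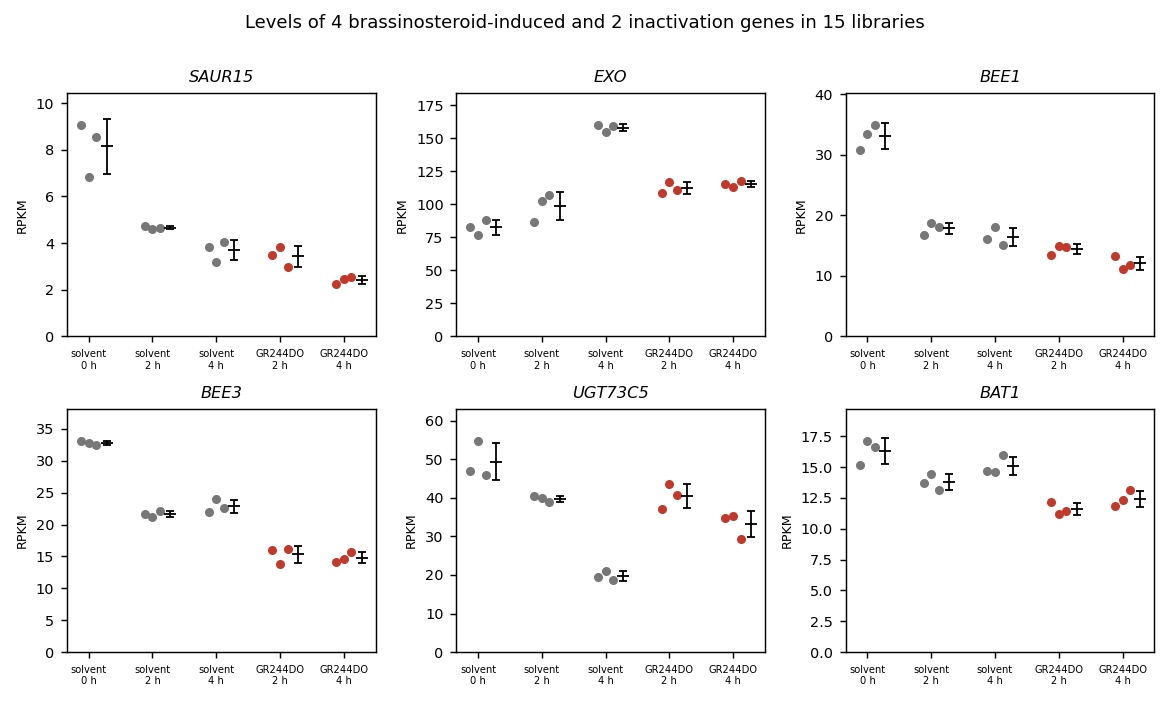
RPKM by library on linear axes that start at 0, with the mean ± SD of 3 libraries. Shown are the 4 of 8 brassinosteroid-induced genes called lower at 4 h of GR244DO (SAUR15, EXO, BEE1, BEE3) and 2 inactivation genes (UGT73C5, BAT1). EXO rises in solvent to 158 ± 2.65 RPKM at 4 h and stays at 115 ± 2.099 RPKM with GR244DO, and UGT73C5 falls in solvent to 19.8 ± 1.20 RPKM but has 33.2 ± 3.28 RPKM with GR244DO.

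Over time in solvent more of the 10 genes were called than with GR244DO, as across the transcriptome. Time in the medium and time of day cannot be told apart here. From 0 h to 2 h, 3 of the 9 tested genes rose and 0 fell, beside 28.7% of all genes called, 19% higher and 9.66% lower. Unadjusted p was under 0.05 for 3 of 9 and for 39.4% of all genes, so the share of the 9 is close to that of all genes. The split of 3644 higher and 1850 lower calls was 2563 and 2538 under quantile normalization, 2199 and 2596 under median-of-ratios scaling and 2467 and 2780 with the length trend removed. CPD went from 85.4, 102 and 96.5 RPKM at 0 h to 112, 117 and 118 RPKM at 2 h (log2 difference 0.29, SE 0.07, adjusted p = 0.00382). BR6OX2 went from 6.53, 7.34 and 6.01 to 10.3, 10.07 and 10.8 RPKM, a 1.57-fold rise (log2 difference 0.58, SE 0.13, adjusted p = 0.00342). DWF4 went from 9.07, 10.13 and 8.78 to 11.8, 11.6 and 10.8 RPKM (log2 difference 0.26, SE 0.07, adjusted p = 0.0106). In all 3 the groups did not overlap, as in 36.5% of all genes. The call of CPD was lost under median-of-ratios scaling (adjusted p = 0.054) and that of DWF4 in the fit of these 6 libraries alone (0.0669).

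The other genes were not called from 0 h to 2 h. DET2 had 28.9, 19.7 and 27.9 RPKM at 0 h and 21.1, 24.4 and 24.4 RPKM at 2 h (log2 difference -0.11, interval -0.35 to 0.13), and without solvent 0 h replicate 2, which was the lowest, it was called lower (-0.28, adjusted p = 0.016). BAS1 had 2.94, 2.72 and 2.60 RPKM at 0 h (log2 difference -0.02, interval -0.22 to 0.17). For DWF1, with 247, 248 and 248 RPKM at 0 h, ROT3, with 5.70, 6.13 and 5.61 RPKM, SOB7, with 5.81, 5.25 and 5.16 RPKM, and CYP90D1, with 3.24, 5.04 and 3.60 RPKM, the log2 differences lay between -0.01 and 0.04. BR6OX1 had 0.365, 0.222 and 0.195 RPKM at 0 h, the last of these being its lowest value.

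From 2 h to 4 h CPD, BR6OX2 and BAS1 fell and DET2 rose. CPD fell to 87.5, 79.6 and 88.7 RPKM (log2 difference -0.44, SE 0.07, adjusted p = 2.43e-04) and kept this call in each of 18 alternatives. BR6OX2 fell to 6.22, 9.68 and 6.36 RPKM (log2 difference -0.46, SE 0.13, adjusted p = 0.0205), with replicate 2 close to the 2 h level. BAS1 fell from 2.78, 2.64 and 2.64 to 2.05, 2.23 and 1.75 RPKM (log2 difference -0.30, SE 0.09, adjusted p = 0.0299), and DET2 rose from 21.1, 24.4 and 24.4 to 31.0, 29.5 and 31.1 RPKM (log2 difference 0.38, SE 0.11, adjusted p = 0.023). That made 1 gene higher and 3 lower of 9, beside 21.3% of all genes called, 11.8% higher and 9.5% lower, and groups without overlap in 39.2%. Unadjusted p was under 0.05 for 4 of 9 and for 34.3% of all genes. With the near-identical pairs averaged the calls of BR6OX2, BAS1 and DET2 were lost (adjusted p = 0.202, 0.17 and 0.117), and BAS1 lost its call in 9 of 17 alternatives.

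Over the whole 4 h in solvent, DWF4 was higher (log2 difference 0.34, SE 0.07, adjusted p = 8.70e-04) and BAS1 lower (log2 difference -0.32, SE 0.09, adjusted p = 0.00911), 2 of 9 beside 44.1% of all genes, 28.7% higher and 15.4% lower. That split of 5489 and 2957 genes was 4319 and 3928 under quantile normalization, 4147 and 4057 under median-of-ratios scaling and 4275 and 4411 with the length trend removed. Unadjusted p was under 0.05 for 4 of 9 and for 51% of all genes. The groups did not overlap in either gene, as in 50% of all genes. BAS1 was not called without solvent 4 h replicate 3 (adjusted p = 0.0537). CPD, at 94.6 ± 8.39 RPKM at 0 h and 85.3 ± 4.91 RPKM at 4 h (SD, n = 3), was not called (log2 difference -0.15, SE 0.07, adjusted p = 0.0907), but was called lower under quantile normalization (-0.26, adjusted p = 0.0076), median-of-ratios scaling (0.0259), with the length trend removed (0.0282) and without solvent 0 h replicate 1 (0.0136). The solvent comparisons share the libraries of 0 h, 2 h and 4 h with each other and with the treatment comparisons, so their values are not independent. Shoot marker sums were 28094 to 33329 RPKM at 0 h, 21549 to 22639 at 2 h and 14999 to 17010 at 4 h in solvent, and root marker sums were 1410 to 1553, 1510 to 1519 and 1726 to 1743 RPKM. The shoot sum fell with RBCS1A, LHCB1.3 and RCA, which were called lower from 0 h to 4 h, while the other 3 shoot markers, FAMA (7.50 ± 0.393 to 12.3 ± 0.151 RPKM), BP (3.98 ± 0.401 to 6.11 ± 0.681) and STM (2.91 ± 0.707 to 3.88 ± 0.357), were called higher. Of the root markers 3 were called higher and 1 lower. Their part in the changes with time was not tested.

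**Figure D4:**
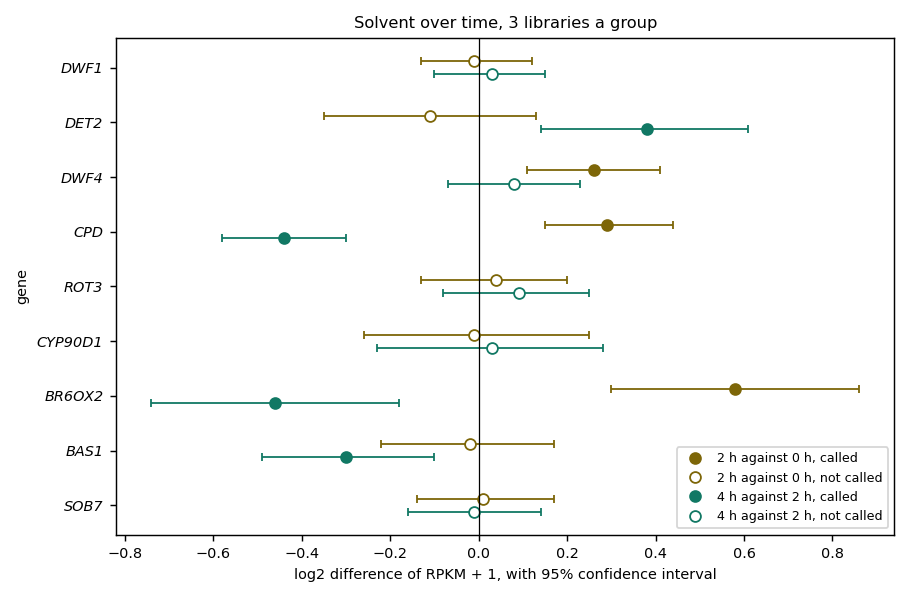
Log2 difference over time in solvent on the log2(RPKM + 1) scale for the 9 tested genes, 2 h against 0 h (brown) and 4 h against 2 h (green), with 95% intervals from the limma fit; filled points passed an adjusted p of 0.05. CPD and BR6OX2 lie at 0.29 and 0.58 in the first interval and at -0.44 and -0.46 in the second.

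CPD and BR6OX2, whose transcripts rose and then fell together in solvent, are shown with the 250 bases before their annotated starts (RefSeq annotation of TAIR10.1), read on the strand of the gene. Capitals mark CANNTG, the core of the elements bound by basic helix-loop-helix factors.
CPD promoter, chr5:1706949-1707198, minus strand: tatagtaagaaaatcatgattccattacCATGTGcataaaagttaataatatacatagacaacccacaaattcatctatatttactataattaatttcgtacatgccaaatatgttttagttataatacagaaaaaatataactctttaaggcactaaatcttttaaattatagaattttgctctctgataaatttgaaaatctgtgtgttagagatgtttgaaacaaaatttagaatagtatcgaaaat
BR6OX2 promoter, chr3:11810476-11810725, plus strand: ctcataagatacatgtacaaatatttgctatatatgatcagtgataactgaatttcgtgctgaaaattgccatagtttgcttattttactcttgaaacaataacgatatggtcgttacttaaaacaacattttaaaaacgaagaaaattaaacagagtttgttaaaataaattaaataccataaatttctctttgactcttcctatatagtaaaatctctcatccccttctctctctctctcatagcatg
CPD held 1 such match, CATGTG, from base 222 to 217 before the start, and BR6OX2 held 0. The elements bound by BZR1 and BES1 or their relatives were searched on both strands in the same window of all 10 genes: CGTGTG and CGTGCG, the brassinosteroid response elements, and CACGTG, the G-box, which is itself a form of CANNTG. Each was found in 0 of 10, and in 5.37%, 1.57% and 6.49% of 27443 promoters of the same length. CANNTG, added after those were searched, was found in 9 of 10 and in 55.3% of all promoters. No match says only that these letters are not in this window. Whether transcription begins at the annotated starts was not tested.

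Other genes of the pathway were counted over time in solvent in the same way, beside the shares of all genes, which from 0 h to 2 h were 19% higher and 9.66% lower. In that interval 3 of 6 sterol genes upstream were called higher and 0 lower: SMT1 (0.17), SMT2 (0.19) and DWF7 (0.22), on the log2 scale. These calls were lost in 8, 6 and 8 of 18 alternatives, with the near-identical pairs averaged among them (adjusted p = 0.128, 0.0827 and 0.13). Of 16 signalling genes tested, 3 were called higher and 1 lower, near the shares of all genes. BKI1, an inhibitor of the receptor BRI1, rose by 0.51 (adjusted p = 0.00147 by limma), BEH3 and BRL3 rose by 0.25 and 0.23, and BEH1, a relative of BZR1, had a difference of -0.56 (adjusted p = 4.47e-04). The calls of BEH3 and BRL3 were each lost in 10 of 18 alternatives, with those pairs averaged among them (0.106 and 0.147).

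Of 8 brassinosteroid-induced genes tested, 6 were called lower and 1 higher after 2 h in solvent, beside 9.66% of all genes called lower and 19% higher, with a median of -0.56 beside 0.075 for all genes. The gene called higher was EXO (0.25), whose call was lost in 8 of 18 alternatives (adjusted p = 0.128 with pairs averaged), and BEE2 was not called (0.12). EXPA8, an expansin that loosens cell walls, had 24.05, 18.1 and 25.9 RPKM at 0 h and 8.16, 9.06 and 11.1 RPKM at 2 h (log2 difference -1.18, SE 0.12, adjusted p = 1.56e-06). BEE1 went from 30.8, 33.5 and 35.0 to 16.8, 18.7 and 18.1 RPKM (log2 difference -0.86, SE 0.08, adjusted p = 7.43e-07), BEE3 by -0.58 and SAUR15 by -0.68 on the log2 scale. The count at 4 h against 0 h was the same, 6 lower and 1 higher, with a median of -0.61, beside 15.4% and 28.7% of all genes. At 4 h against 0 h, 7 of the 16 signalling genes were called higher and 1 lower, and 4 of the 6 sterol genes higher and 0 lower. Of the 4 other inactivation genes 0 were called higher and 1 lower. Some of the sterol and signalling calls were lost in as many as 11 of 18 alternatives. Of the 4 other inactivation genes tested, UGT73C5 (-0.30) and BAT1 (-0.23) were called lower from 0 h to 2 h, calls lost in 2 and 6 of 18 alternatives (0.0599 and 0.0681 with pairs averaged), and UGT73C5 fell again from 2 h to 4 h, from 40.4, 39.9 and 39.0 to 19.4, 21.1 and 18.8 RPKM (log2 difference -0.97, SE 0.08, adjusted p = 5.59e-07).

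From 2 h to 4 h, 4 of the 16 signalling genes were called higher and 0 lower, beside 11.8% and 9.5% of all genes. They were BES1 (0.54, adjusted p = 2.31e-04 by limma), BEH3 (0.37), BKI1 (0.42) and BZR1 (0.45). HYD1 and DWF7, both sterol genes, were higher by 0.24 each, calls that were lost in 5 of 18 alternatives for either gene (0.0786 and 0.0648 with pairs averaged). Of 3 listed activators of synthesis genes, the transcription factor gene CES, an activator of CPD, was at 0 in every library. TCP1, an activator of DWF4, lay under the filter. BRX, the only 1 tested, was not called in any comparison (log2 difference -0.20 from 0 h to 2 h, and -0.05 at 2 h and -0.16 at 4 h of GR244DO). EXO was the 1 brassinosteroid-induced gene of 8 called from 2 h to 4 h, and it rose (log2 difference 0.68, SE 0.07, adjusted p = 5.68e-06).

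Within the group of 10, pairs of genes moved together to different degrees over the 15 libraries. These correlations of log2(RPKM + 1) describe these libraries only, since the points share 5 groups and their times. DWF4 had a Pearson r of 0.70 with CYP90D1 and 0.66 with BR6OX2, while CPD had 0.62 with BAS1 and 0.58 with BR6OX2. DWF4 and CPD, which act next to each other, had an r of -0.01. The lowest values were -0.75 between BR6OX2 and DWF1 and -0.67 between CYP90D1 and DWF1.

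The 3 members with the widest range of group means were set against the other 19154 tested genes by the same measure over 15 libraries. For BR6OX2 the most alike were ATCHR12 (AT3G06010, r = 0.963), MGP3 (AT1G68990, 0.962) and AT4G18070 (0.958). For CYP90D1 they were AT4G10060 (0.918), AT3G61410 (0.917) and AT4G19440 (0.912), and for CPD they were CHX16 (0.946), OPT1 (0.942) and AT1G11210 (0.938).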

How the data were processed

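RNA was sequenced in 15 libraries. The deposited table held RPKM values, made by the authors from counts of reads per gene. Per the submitters' processing notes, STAR, featureCounts, DESeq and the TAIR10 genome were used, while versions and the handling of reads with several matches are not stated in the sources used here. Of 32678 named genes, 6698 were at 0 throughout, and 1 entry without a name was left out. Whole reads within 0.02 were recovered from the RPKM of all 25980 other genes, against 1 of 1000 genes with altered totals, and gave the depths. They were tested only in an alternative.

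The 19155 genes that reached 1 RPKM in 3 or more libraries were tested on log2(RPKM + 1), which understates changes of low genes, with limma 3.58.1 in R 4.3.3. One fit by group covered all 15 libraries, with a variance trend and Benjamini-Hochberg adjustment over all genes, and an adjusted p under 0.05 counted as called. The fit was tested on simulated data with independent replicates of a common spread. These hold no near-identical pairs, so that test cannot speak to the effect of such pairs. Nor can it speak to the unequal spread of the real replicate pairs, at 1.13 to 19.23 per degree of freedom. No result given here rests on it. Floors of 3 reads cover counting error only. Members and lists were chosen with earlier results of these data known. All 10 members were named. Of the other pathway lists at most 4 called genes per comparison were named, by smallest adjusted p, besides genes that went the other way.

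Whether replicate numbers pair the libraries was checked by correlating same-numbered deviations from group means: 0.179, 0.133 and 0.101 at 2 h, which counted as paired from the data alone as no label says so, and -0.183, 0.491 and 0.407 at 4 h, with at least 1 pair under 0.1 in each solvent comparison. Libraries of unlike number had -0.157 to 0.043 at 2 h and -0.577 to 0.403 at 4 h. Deviations within a group sum to 0, so these values are not independent. The main fit held no replicate block, as no label names such pairs. Alternatives were another pseudocount (0.1), no filter or 5 RPKM, quantile and median-of-ratios scaling, a correction for the length trend of each library, no variance trend, only the groups compared, the replicate block in either fit, averaged near-identical pairs, limma-voom on the recovered reads, and each library left out. Promoters came from the TAIR10.1 genome and annotation (RefSeq), since the table holds no coordinates. The 50-base exon windows were matched on both strands of that genome.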

Additional observations from a re-analysis of the deposited data

Results flagged for a closer look

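The response of the glucosyltransferase gene UGT73C5 to GR244DO was larger at 4 h than at 2 h by 0.69 on the log2 scale (adjusted p = 0.00482 by limma, difference of differences). Its level with solvent and GR244DO was 39.8 ± 0.728 and 40.5 ± 3.15 RPKM at 2 h and 19.8 ± 1.20 and 33.2 ± 3.28 RPKM at 4 h (SD, n = 3), and the call was lost with the near-identical pairs averaged (adjusted p = 0.119). For EXO, a brassinosteroid-induced gene, the response at 4 h minus that at 2 h was -0.64 on the log2 scale (adjusted p = 0.00328 by limma). It had 98.6 ± 10.9 and 112 ± 4.49 RPKM at 2 h and 158 ± 2.65 and 115 ± 2.099 RPKM at 4 h, and this call too was lost with those pairs averaged (adjusted p = 0.0549). Neither gene is among the 10.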

How the results depend on the processing

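The count of members called stayed within 1.5 times its main value in all alternatives not named here. At 2 h of GR244DO (1 called) it was 2 with the replicate block and 0 with near-identical pairs averaged, and 0 to 1 with each library left out. At 4 h (1 called) it was 0 with no filter, 2 with the replicate block in the groups compared and 0 with pairs averaged, and 0 to 1 with each library left out. For the difference between times it was 0 throughout. In solvent, leaving out each library gave 3 to 4 from 0 h to 2 h (3 called). From 2 h to 4 h (4 called) it was 1 with pairs averaged and 2 with the length trend removed, and 1 to 4 with each library left out (2 without solvent 2 h replicate 1 or 3, 1 without solvent 4 h replicate 1 or 3). From 0 h to 4 h (2 called) it was 1 with a filter at 5 RPKM, where BAS1 was not tested, and 1 to 4 with each library left out (4 without solvent 0 h replicate 1, 1 without solvent 4 h replicate 3). Causes were not tested. Counts over all genes also moved by over 1.5 times. With pairs averaged, higher and lower calls were 45 and 22 at 2 h (main 170 and 79), 260 and 204 at 4 h (899 and 811), 29 and 22 for the difference (184 and 145), 2162 and 1276 from 0 h to 2 h (3644 and 1850) and 953 and 772 from 2 h to 4 h (2265 and 1820). In the fit of only the groups compared they were 81 and 33 at 2 h and 2154 and 1277 from 0 h to 2 h. Without 1 library they fell as far as 64 and 28 at 2 h (GR244DO 2 h replicate 3), 487 and 408 at 4 h (GR244DO 4 h replicate 2), 117 and 82 for the difference (GR244DO 4 h replicate 1) and 1472 and 1104 from 2 h to 4 h (solvent 4 h replicate 1). BR6OX2 from 2 h to 4 h also lost its call in the fit of those groups alone (0.0515) and without solvent 2 h replicate 3 (0.0613) or solvent 4 h replicate 1 (0.108) or 3 (0.0995).

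Replicate numbers were counted as pairing the libraries at 2 h only, on the weak correlations given above. There the replicate block in the fit of all libraries gave DWF4 its call. Elsewhere the block moved a count of member calls by over 1.5 times only at 4 h, as given. Over all genes the block gave 777 and 248 calls at 2 h and 1561 and 1186 at 4 h, and in only the groups compared 2267 and 1936 at 4 h and 1447 and 1257 from 2 h to 4 h. With the block DET2 was also called from 0 h to 4 h in solvent (0.27, adjusted p = 0.0362).

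Signs reversed only for differences that were not called. Values under quantile, median-of-ratios and length-trend settings, in that order, were: at 2 h ROT3 -0.05, -0.02, -0.04 and SOB7 -0.08, -0.04, -0.05; at 4 h DWF4 -0.01, -0.02, -0.01 (and -0.02 with pairs averaged) and DWF1 0.02 (quantile); from 0 h to 2 h ROT3 -0.04, -0.03, -0.06, SOB7 -0.06, -0.06, -0.07, CYP90D1 0.01 (voom on recovered reads) and DWF1 0.01 (pairs averaged); from 2 h to 4 h DWF1 -0.02 (quantile) and SOB7 0.03 and 0.01 (quantile and length); from 0 h to 4 h CYP90D1 -0.01, -0.04, -0.04, DWF1 -0.05, -0.06, -0.03 and SOB7 -0.03, -0.07, -0.06. With each library left out, reversed differences ranged as follows: at 2 h ROT3 -0.00 to 0.11 and SOB7 -0.01 to 0.04; at 4 h DWF4 -0.02 to 0.04 and BR6OX2 -0.13 to 0.15; between times CPD -0.01 to 0.07 and BAS1 -0.03 to 0.12; from 0 h to 2 h ROT3 -0.01 to 0.07, CYP90D1 -0.11 to 0.14, DWF1 -0.04 to 0.02, BAS1 -0.05 to 0.01 and SOB7 -0.02 to 0.06; from 2 h to 4 h CYP90D1 -0.04 to 0.10 and SOB7 -0.04 to 0.02; from 0 h to 4 h BR6OX2 -0.06 to 0.22, CYP90D1 -0.09 to 0.17 and SOB7 -0.03 to 0.05. Depth limited BR6OX1, at 10 to 34 reads per library.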
